A study of Homo sapiens with 6 samples.

Results

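The transcripts described here are those of 10 glycolysis genes, SLC2A1, HK2, PFKP, ALDOA, TPI1, GAPDH, PGK1, ENO1, PKM and LDHA. They were chosen by symbol as the genes of glucose uptake, glycolysis and lactate formation that cancer cells are known to express, and each symbol matched 1 of the 58302 rows of the RIP-seq table. The series holds 6 libraries with 1 library per group, from the human colorectal cancer cell lines SW480 and DLD-1, both labelled wild type and untreated. In each line there was 1 Input library of total RNA, 1 library of RNA co-precipitated with NAT10, an enzyme that acetylates RNA (RIP-seq), and 1 library of total RNA that was fragmented and pulled down by an antibody to N4-acetylcytidine, abbreviated ac4C (acRIP-seq). Each line is a single established culture and no library has a replicate, so each value below describes libraries, not a line or a condition. No control immunoprecipitation entered the comparison, and RIP was set against Input.

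Glycolysis splits glucose into pyruvate. Glucose enters through transporters such as SLC2A1 (GLUT1), is phosphorylated and cleaved in an energy-consuming phase by hexokinase, phosphofructokinase, aldolase and triosephosphate isomerase, and yields ATP and NADH in a second phase that runs from GAPDH to pyruvate kinase. Lactate dehydrogenase then turns pyruvate into lactate, and many tumours, including those of the colon, run this route even where oxygen is present. NAT10 places an acetyl group on cytidines of RNA, and the modified base is ac4C.

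Among the members' acRIP-seq peaks, the only listed motif site that the sequence tables used here cover lies in the first block of a PGK1 peak, in the first exon of the gene on the transcribed strand. The peak starts 24 bases after the annotated start of PGK1. Its first 26 bases (GRCh38.p14, chrX:78104272-78104297, plus strand, RefSeq) are shown because they hold a motif site that the deposited list counts. The site itself begins at chrX:78104288. The capitals mark the 4 Cs of the listed pattern, each separated from the next by 2 bases.

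PGK1: agcgcacgtcggcagtCggCtcCctC

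Of 17787 RefSeq windows of plus-strand genes, read on the transcribed strand at the same distance from the start and over the same 26 bases, 13.2% hold these 4 evenly spaced Cs. The match describes letters only.

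Before the members are described, a property of the libraries has to be given, because it touches each comparison by label. Over 16196 protein-coding genes, the Pearson correlation of log2(FPKM + 1) across genes was 0.944 between RIP under the label SW480 and Input under the label DLD-1, and 0.871 between RIP and Input both labelled SW480. The RIP library labelled DLD-1 likewise followed the Input labelled SW480 (0.951) more than that labelled DLD-1 (0.856). FPKM are fragments scaled to transcript length and to library size. Of the 35 genes that both deposited Input tables place in SW480 and 117 that both place in DLD-1, 35 and 117 were higher in the RIP library of the other label. A pair of sugar-handling genes, named after their values were seen, shows the pattern. HKDC1, a hexokinase, had 46.6 FPKM in the Input labelled DLD-1 and 42.3 FPKM in the RIP library labelled SW480, and was listed at 0 in the Input labelled SW480 and at 0.172 FPKM in the RIP library labelled DLD-1. SLC2A3, the glucose transporter GLUT3, had 45.5, 72.3, 0.465 and 1.14 FPKM in the same order. Which library carries which line cannot be told apart with 1 library per group. Libraries are therefore called by their labels, the ratio of each member is given over the Input of either label, and the mean of both labels is used for the order of genes, because it is the same whichever Input each RIP library is set against.

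The epithelial keratin gene KRT18 and the adhesion gene EPCAM were present in all 4 columns of the RIP-seq table, at 399.7 to 1146 FPKM and 95.05 to 324 FPKM. The summed level of 10 epithelial markers was 3373 and 1707 FPKM in the Inputs labelled SW480 and DLD-1, and 1400 and 2922 FPKM in the RIP libraries. Of the 10, only 6 had at least 1 FPKM in both Inputs. KRT20 had 29.2 and 0.0426 FPKM in the Inputs labelled SW480 and DLD-1 and 0 and 23.9 FPKM in the RIP libraries. CDX1 was above 0 only in the Input labelled SW480 (0.623 FPKM). Over the 4 columns VIL1 had 0.261 to 1.24 FPKM and LGALS4 0.936 to 4.78 FPKM. Fibroblast, leukocyte and endothelial markers, 12 genes in all, summed to under 1 FPKM in each of these libraries per cell type. In bulk libraries, fewer cells with a transcript and less of it per cell cannot be told apart. These 4 columns hold 13498777 to 29628966 fragments and the Inputs deposited with acRIP-seq hold 11007688 and 10817661, all solved from the steps of the FPKM values. In the RIP-seq table the members had 952 to 83719 reads. The counting standard error of a log2 ratio was thus 0.013 to 0.049, which covers counting only and not the spread between cultures or precipitations.

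Each of the 10 members was present in all libraries and passed the filter of at least 1 FPKM in both Inputs, as did 12324 genes. In the Inputs the order of the levels was alike at the low end and in the places of GAPDH and TPI1, and differed elsewhere. PKM (440 FPKM) and GAPDH (411 FPKM) led in the Input labelled SW480 and ALDOA (426 FPKM) and GAPDH (387 FPKM) in that labelled DLD-1, where PKM (320 FPKM) came after ENO1 (330.1 FPKM). By contrast, HK2 and PGK1 were lowest in both. Of the 9 pairs of neighbours in each order, only ALDOA and ENO1 in the Input labelled SW480 lay within counting error of each other. In both RIP libraries GAPDH was highest and HK2 lowest, and the single pairs within counting error were LDHA and TPI1 (label SW480) and PFKP and PGK1 (label DLD-1). Together the members made up 0.564% and 0.635% of all protein-coding FPKM in the Inputs and 0.993% and 1.0% in the RIP libraries. Without GAPDH these shares were 0.446% and 0.521% in Input and 0.572% and 0.512% in RIP.

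**Figure D1:**
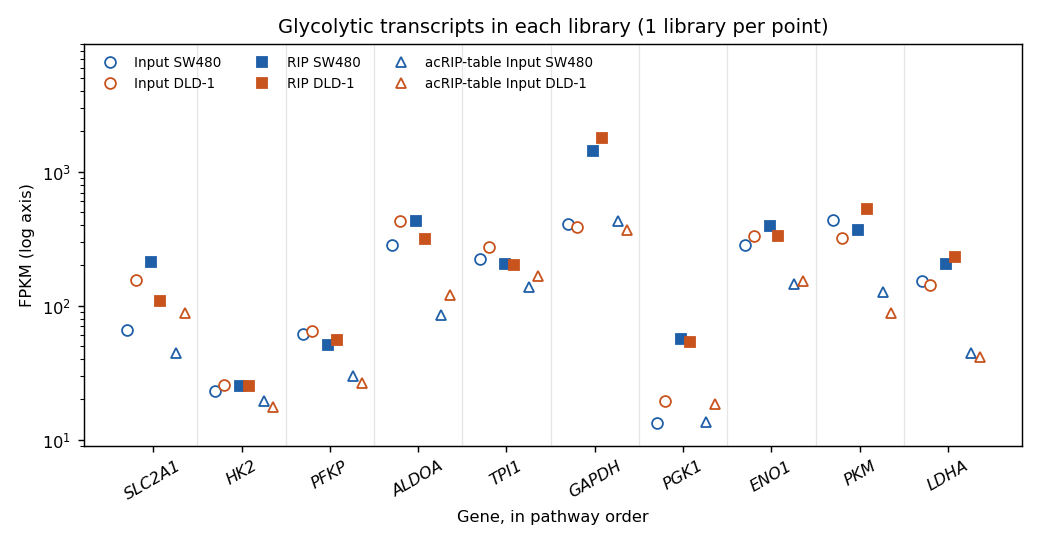
FPKM (log axis) of each of the 10 glycolysis genes, 1 point per library: Inputs and RIP libraries of the RIP-seq table and the Inputs of the acRIP-seq table, coloured by label. GAPDH and PGK1 are the genes whose squares (RIP) lie farthest above their circles (Input). The triangles rest on other gene lengths and are not on the scale of the circles.

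The ratio used is log2((RIP FPKM + 1)/(Input FPKM + 1)), which compresses the change of genes with low FPKM. Called means at least 2-fold, and no test is possible within a label. In the libraries labelled SW480, 3 members (SLC2A1, GAPDH and PGK1) lay at least 2-fold above Input, against 15.6% of all genes tested, and 0 lay at least 2-fold below, against 16.0%. In those labelled DLD-1, 2 members (GAPDH and PGK1) lay above, against 15.1%, and 0 below, against 19.2%. By the mean of both labels, 2 members (GAPDH and PGK1) were above, against 8.16%, and 0 below, against 10.9%. The members' median of this mean was 0.23, beside 0.10 for 10350 protein-coding genes and 0.007 for all genes tested, and it ranged from -0.28 (TPI1) to 2.0 (GAPDH). Both RIP libraries exceeded both Inputs for 3 members (GAPDH, PGK1 and LDHA), where 26.6% of all genes did, and fell below both for 2 (PFKP and TPI1), where 26.5% of all genes did. When the libraries were rescaled to the FPKM sum of nuclear protein-coding genes, the median over all genes tested shifted by -0.21. GAPDH (1.76) and PGK1 (1.48) stayed above 2-fold on that scale, and the mean log2 ratios of HK2, ALDOA, ENO1 and PKM, which were above 0 as deposited, came to -0.19, -0.16, -0.002 and -0.01.

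SLC2A1 (RefSeq chr1:42925353-42958868, minus strand), the transporter that brings glucose into the cell, had 65.7 FPKM in the Input labelled SW480 and 154.5 FPKM in that labelled DLD-1. The RIP libraries had 213 FPKM under the label SW480 and 108 FPKM under the label DLD-1. The level was thus higher under the label DLD-1 in Input and higher under the label SW480 in RIP, and the RIP values did not clear both Inputs. The log2 ratio was 1.68 in SW480 and -0.51 in DLD-1 over the Input of the same label, and 0.46 and 0.71 over that of the other label. The mean of both was 0.59, higher than in 77.3% of protein-coding genes. Of the members, SLC2A1 moved most with the choice of label for the Input within the RIP-seq table.

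HK2, the hexokinase that traps glucose by phosphorylation, was the steadiest member. It had 23.1 and 25.5 FPKM in the Inputs labelled SW480 and DLD-1 and 25.2 and 25.0 FPKM in the RIP libraries. The 4 values overlapped, and the log2 ratios of 0.12 and -0.03 changed to -0.02 and 0.11 over the other Input. PFKP, the platelet-type phosphofructokinase that commits sugar to glycolysis, had 61.6 and 65.1 FPKM in Input and 51.3 and 55.6 FPKM in RIP. Both RIP values were below both Inputs. The log2 ratio was -0.26 and -0.22 over the Input of the same label and -0.34 and -0.15 over the other, with a mean of -0.24.

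ALDOA, the aldolase that cleaves the 6-carbon sugar, was among the most abundant members, with 285 and 426 FPKM in the Inputs labelled SW480 and DLD-1 and 427 and 318 FPKM in the RIP libraries. As for SLC2A1, the order of the labels was turned around between Input and RIP. Its log2 ratio was 0.58 and -0.42 over the Input of the same label but 0.005 and 0.16 over the other, with a mean of 0.08. TPI1, which interconverts both 3-carbon products of that cleavage, had 223 and 274 FPKM in Input and 205 and 201 FPKM in RIP. Its log2 ratio stood at -0.12 and -0.45 over the Input of the same label and -0.42 and -0.15 over the other. It was the lowest member by mean log2 ratio, at -0.28, and 27.0% of protein-coding genes lay below it.

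GAPDH, which oxidises the 3-carbon sugar and opens the energy-yielding phase, stood highest. It had 411 and 387 FPKM in the Inputs labelled SW480 and DLD-1 and 1433 and 1773 FPKM in the RIP libraries. Both RIP libraries were far above both Inputs, and GAPDH alone was 42.4% and 48.9% of the members' summed FPKM in RIP, against 20.97% and 18.04% in Input. In the Inputs of the acRIP-seq table, whose gene lengths differ, this share was 39.9% and 33.9%. The log2 ratio was 1.80 and 2.19 over the Input of the same label and 1.89 and 2.11 over the other, a mean of 2.0 (3.99-fold) that ranked 79 of 10350 protein-coding genes from the top. By the share of reads over the Inputs of the acRIP-seq table, described further on, the mean was 1.33. The table lists 62 annotated GAPDH pseudogenes, 22 of them above 0. Their summed FPKM was 0.468% and 0.488% of GAPDH in RIP and 4.09% and 4.06% in Input, and how reads were shared between these copies and GAPDH is not given in the sources used here.

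PGK1, the kinase of the next step and the first to make ATP, was the lowest member in Input but not in RIP. It had 13.3 and 19.4 FPKM in the Inputs labelled SW480 and DLD-1 and 56.5 and 53.8 FPKM in the RIP libraries. The groups did not overlap. The log2 ratio was 2.01 and 1.42 over the Input of the same label and 1.49 and 1.94 over the other, and the mean of 1.71 (3.28-fold) ranked 158 of 10350. GAPDH and PGK1 catalyse consecutive steps, and over the Inputs of the RIP-seq table no other member had a mean log2 ratio above 0.59.

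ENO1, the enolase, had 284 and 330.1 FPKM in the Inputs labelled SW480 and DLD-1 and 395 and 330.0 FPKM in the RIP libraries. The values overlapped. The log2 ratio was 0.47 and -0.00057 over the Input of the same label and 0.26 and 0.21 over the other, and the mean of 0.24 was close to the members' median. PKM, the pyruvate kinase that closes the pathway, had 440 and 320 FPKM in Input and 366 and 528 FPKM in RIP, so that the order of labels was again turned around. Its log2 ratio was -0.27 and 0.72 over the Input of the same label and 0.19 and 0.26 over the other, with a mean of 0.23. LDHA, which makes lactate, had 153 and 143 FPKM in Input and 206 and 229.7 FPKM in RIP. Both RIP values exceeded both Inputs, by less than 2-fold. LDHA had a log2 ratio of 0.43 and 0.68 over the Input of the same label and 0.52 and 0.59 over the other, and the mean of 0.55 lay above 75.9% of protein-coding genes.

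**Figure D2:**
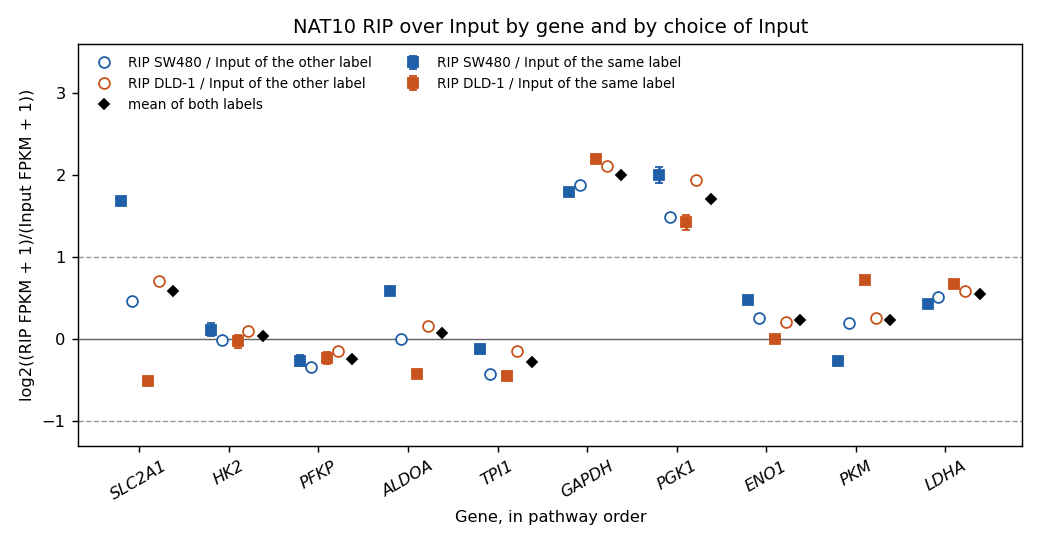
Log2 ratio of RIP to Input for each gene. Squares take the Input of the same label with a 95% counting interval, circles the Input of the other label, and diamonds the mean of both labels; dashed lines mark 2-fold. GAPDH and PGK1 lie above the upper line with either Input of the RIP-seq table, whereas SLC2A1 does so only for the RIP library labelled SW480 over its own Input.

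The RIP-to-Input difference can be tested only by treating both labels as replicates of each other, which they are not. In limma on log2(FPKM + 1) with 2 RIP and 2 Input libraries, 103 of 12324 genes (0.836%) were higher in RIP and 366 (2.97%) were lower once p-values were adjusted by Benjamini-Hochberg (threshold 0.05). Of the members, 0 passed in either direction. With the line as a block and the Input labels exchanged, 4 members (SLC2A1, GAPDH, PGK1 and LDHA) and 5564 of the 12324 genes passed. That pairing was taken from the correlations between these same libraries and so is no independent evidence. The lowest limma adjusted p among members was then 9.23e-08, and with the block as labelled 0 members passed. At an unadjusted p under 0.05 in the fit without block, 2 members (GAPDH and PGK1) were counted. Of the 12324 genes, 1307 were higher and 1523 lower in RIP at that threshold. PGK1 was 1.71 higher on the log2 scale (moderated SE 0.28, limma adjusted p = 0.0527) and GAPDH 2.0 higher (SE 0.33, limma adjusted p = 0.0534), both in 2 of 2 RIP libraries. With a pseudocount of 0.1 FPKM both passed, at a lowest limma adjusted p of 0.0416. The other members had limma adjusted p of 0.26 (LDHA) to 0.93 (HK2).

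The labels can also be compared within one kind of library. Between the Inputs, 1 member, SLC2A1, was at least 2-fold apart, at -1.22 on the log2 scale (SW480 minus DLD-1), against 16.5% of all genes. In the Inputs of the acRIP-seq table it was -0.98 as given, under 2-fold. It was -1.04 once each Input was scaled to the protein-coding median of the RIP-table Input of its label. With that scaling, ALDOA (-0.58 and -0.56), PGK1 (-0.51 and -0.48) and PKM (0.46 and 0.46) had nearly the same difference in both tables. Unscaled, the acRIP-table values of these 3 were -0.51, -0.42 and 0.52. The labels give 1 Input sample per line, so the tables are no replicates of each other. Between the RIP libraries 0 members were 2-fold apart, against 13.8% of all genes, with SLC2A1 at 0.97, PKM at -0.53 and ALDOA at 0.43. For 9 of 10 members, all but PFKP, the difference between labels had opposite signs in Input and RIP. The difference lay within its counting interval in RIP for HK2 (0.01, SE 0.03) and TPI1 (0.03, SE 0.02) and in Input for PFKP (-0.08, SE 0.04), so the order of labels is not settled for these 3, and centring turned the RIP values of HK2 and TPI1 to -0.04 and -0.02. Opposite signs were the case found for 74.0% of all genes tested. The share was 92.5% of the 1473 genes at least 2-fold apart in both Input tables after the scaling above, SLC2A1 among them.

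**Figure D3:**
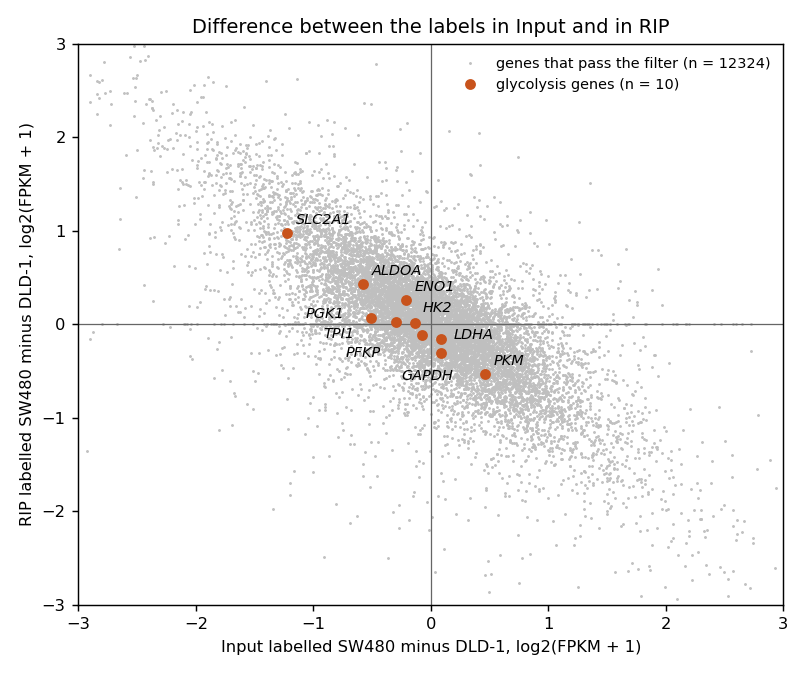
Difference between the labels SW480 and DLD-1 in Input (x axis) and in RIP (y axis), both in log2(FPKM + 1), for 12324 genes (grey; 101 lie outside the axes) and the 10 glycolysis genes (orange). The cloud falls from upper left to lower right, and SLC2A1, ALDOA and PKM lie along it.

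The Inputs of the acRIP-seq table gave lower FPKM for most members, unevenly. Their unit is not named by the authors and was read as FPKM. Whole gene lengths solved from the values were longer there than in the RIP-seq table for each of the 7 members where both could be solved. PKM had 8571 against 3016 bases, ALDOA 6153 against 2534 and GAPDH 2981 against 1875, and HK2 differed least, with 6064 against 5772 bases. Scaled to the same median over protein-coding genes, these Inputs gave another order of the mean log2 ratio, with LDHA at 1.75, PKM at 1.47, GAPDH at 1.41, ALDOA at 1.27 and PGK1 at 1.18. PGK1 was under 2-fold in single labels, at 0.90 for the RIP library labelled DLD-1 over its own label and at 0.97 for that labelled SW480 over the other. A share of reads needs no length, but whether the reads counted changed with these gene lengths was not tested. By that measure, added after the data were seen, GAPDH was 1.07 (label SW480) and 1.59 (label DLD-1) higher in RIP on the log2 scale, SLC2A1 1.90 and -0.07, ALDOA 1.06 and 0.11, PKM 0.03 and 1.08, ENO1 0.64 and 0.30, HK2 0.30 and 0.45, and TPI1 -0.06 and -0.34. GAPDH was the highest of the 7 by the mean of both labels (1.33). Its share of reads was 1.66 and 1.52 times higher in the acRIP-table Inputs than in those of the RIP table, while the other 6 members had 0.690 to 0.957 times as many. PGK1, PFKP and LDHA could not be solved this way.

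The rest of the pathway was examined by lists. Of 24 other isozymes and sugar transporters, 10 passed the filter, with a median mean log2 ratio of 0.17, 0 at least 2-fold above Input (8.16% of all genes tested) and 1 below (10.9%). Highest were the muscle phosphofructokinase PFKM (0.69) and GPI (0.64), the isomerase between hexokinase and phosphofructokinase. Lowest were ENO3 (-0.55) and PGAM4 (-1.71), a close copy of PGAM1 whose counts are uncertain for that reason. SLC2A2, a transporter known from liver and pancreas, and GAPDHS, PGK2 and LDHC, isozymes known from testis, were listed at 0 in all 4 columns of the RIP-seq table. GAPDHS was listed at 5.02 and 1.95 FPKM in the Inputs of the acRIP-seq table.

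Of 21 regulators and genes of pyruvate's onward routes, 18 passed, with a median of 0.36, 4 at least 2-fold above Input (8.16% of all genes tested) and 0 below (10.9%). MPC2, a subunit of the carrier that takes pyruvate into mitochondria, was highest at 2.59, with 1.79 and 1.36 FPKM in the Inputs labelled SW480 and DLD-1 and 15.2 and 13.7 FPKM in RIP. TIGAR, a phosphatase that slows glycolysis, followed at 1.17. The remaining 2 above 2-fold, named after their values were seen, were PDHB (1.14), part of pyruvate dehydrogenase, and the lactate exporter SLC16A3 (1.12). These 4 calls rest on the Inputs of the RIP-seq table. PDHB had 3.27 and 3.01 FPKM there (labels SW480 and DLD-1), TIGAR 2.47 and 1.90, and SLC16A3 7.96 and 9.40. In RIP, PDHB had 9.01 and 7.26 FPKM. In the Inputs of the acRIP-seq table PDHB had 7.16 and 7.31 FPKM and MPC2 4.66 and 4.96. TIGAR had 2.31 and 1.59 FPKM in them, and SLC16A3 3.75 and 5.62. BPGM (-0.29) and PDHA1 (-0.19) were lowest.

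Of 6 gluconeogenesis genes, which run the route backwards, 3 passed, namely PCK2 (0.52), PC (-0.45) and G6PC3 (-0.90). Of 8 hypoxia-induced genes, 7 passed with a median of 0.22, and 1 was at least 2-fold below Input (10.9% of all genes tested). P4HA1 (0.96) and NDRG1 (0.59) were highest, and ADM (-0.87) and BNIP3 (-2.18) lowest. BNIP3 had 3.75 and 3.48 FPKM in the Inputs labelled SW480 and DLD-1 and was listed at 0 and at 0.0388 FPKM in the RIP libraries, so the size of its ratio depends on the pseudocount.

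**Figure D4:**
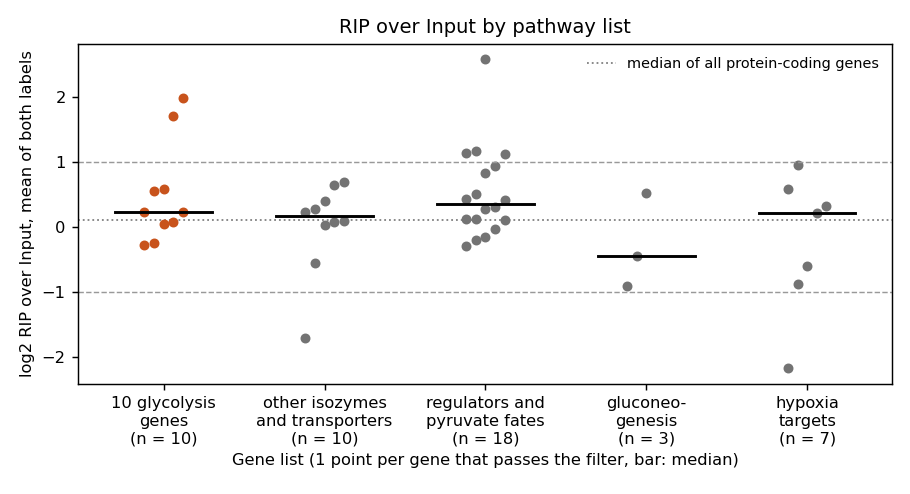
Log2 ratio of RIP to Input, as the mean of both labels, for each gene that passed the filter, by list (bars: medians; dashed lines: 2-fold; dotted line: median of all protein-coding genes, 0.10). The medians of the members, the isozymes, the regulators and the hypoxia genes lie between 0.17 and 0.36, and that of the 3 gluconeogenesis genes is at -0.45.

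The genes whose profile over the 4 libraries was most like the members' median profile, by Euclidean distance of centred log2(FPKM + 1) among 4400 protein-coding genes, were CHCHD4 (distance 0.028), ZFR (0.051), ZFP91 (0.059), INTS10 (0.064) and MRFAP1 (0.065). ENO1 itself lay at 0.040, whereas GAPDH (1.83) and PGK1 (1.51) were farthest from this profile among the members. Of the 4400 genes, 1 lay nearer to the profile than ENO1 and 240 nearer than HK2. For SLC2A1, PGK1 and GAPDH these counts were 3009, 4099 and 4266, so the median profile does not stand for each member. GAPDH and PGK1 were 0.57 apart, and the nearest pair of members was PFKP and TPI1 (0.19).

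All 10 members had at least 1 ac4C peak in the list of SW480, in the list of DLD-1 and in the list called on both libraries pooled. With Inputs of at least 1 FPKM, 51.1% of protein-coding genes had a peak in SW480, 56.8% in DLD-1 and 40.3% in both. Among the 244 protein-coding genes with at least 100 FPKM in both Inputs, these shares were 85.7%, 84.0% and 80.3%. ALDOA, TPI1, GAPDH, ENO1, PKM and LDHA belong to this class, so for these 6 a peak is close to the background of their level. The lists of the lines do not follow the labels of the Inputs either. Of the 35 genes of SW480 by both Input tables, 8 had a peak in the list labelled SW480 and 14 in the DLD-1 list. Of the 117 genes of DLD-1, 35 had a peak in the list labelled SW480 and 21 in the DLD-1 list. The fold of a peak, given by the authors as acRIP over Input, is therefore described per list and not compared between lines. Depth of the acRIP libraries is unknown.

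The members had 16 peaks in the list labelled SW480 and 18 in the DLD-1 list. Of these, 14 and 12 shared at least 1 base with a peak of the other list. The share of all peaks that did so was not computed. Peaks of the members were longer than others, with a median of 509 and 539 bases against 210 and 211 over all peaks. Length was not compared among genes of like level. The list labelled DLD-1 covered 12848 bases of the members where that labelled SW480 covered 7971. Over all peaks the lists covered 4011131 and 2477017 bases, so the lists differ as much as the members do.

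SLC2A1 had 1 peak per list in its 3' untranslated region (chr1:42926182-42926421 in SW480, fold 39.6, and chr1:42926211-42926331 in DLD-1, fold 3.71). The latter was inside the former, neither held a motif site, and the fold of 3.71 was the lowest of all member peaks in these lists. HK2 was the only member with no base shared between the lists. Its SW480 peak (chr2:74892971-74893210, fold 15.8) lay in the 3' untranslated region beside, but not over, a DLD-1 peak (chr2:74892612-74892762, fold 6.82), and a second DLD-1 peak lay in the coding sequence (chr2:74886304-74887928, fold 24.4). PFKP had 1 peak in SW480 (fold 14.2) and 4 in DLD-1 (fold 15.5 to 62.5). All 508 bases of the SW480 peak were also covered in DLD-1, which covered 2002 bases.

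ALDOA and TPI1 had 1 peak per list, with folds of 29.2 (label SW480) and 20.6 (label DLD-1) for ALDOA and 64.3 and 65.2 for TPI1. For both genes all SW480 bases were covered in DLD-1 too. GAPDH had 2 peaks in SW480, at chr12:6535431-6536750 (fold 5.73) and chr12:6537555-6538344 (fold 24.9), where DLD-1 had a single peak over the whole stretch (chr12:6535431-6538344, fold 34.8). That DLD-1 peak covered 1699 exonic bases and held 15 motif sites, the largest number at 1 peak among the members.

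PGK1 had 4 peaks in SW480 (fold 9.44 to 134) and 2 in DLD-1 (fold 76.3 and 108), and 88.6% of the SW480 bases and 78.4% of the DLD-1 bases were shared. The DLD-1 peak chrX:78104272-78125163 begins with the 26 bases printed above, and no SW480 block covers them. ENO1 had 1 peak per list, with a fold of 157 in SW480 and 23.8 in DLD-1. PKM had 2 per list, of which that at chr15:72202473-72202802 had the highest fold of the members in DLD-1 (195). The SW480 peak that overlaps it, chr15:72202533-72202892, had a fold of 19.1. LDHA had 2 peaks in SW480 (fold 20.8 and 21.6) and 3 in DLD-1 (fold 43.2 to 72.9), with 842 bases shared.

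**Figure D5:**
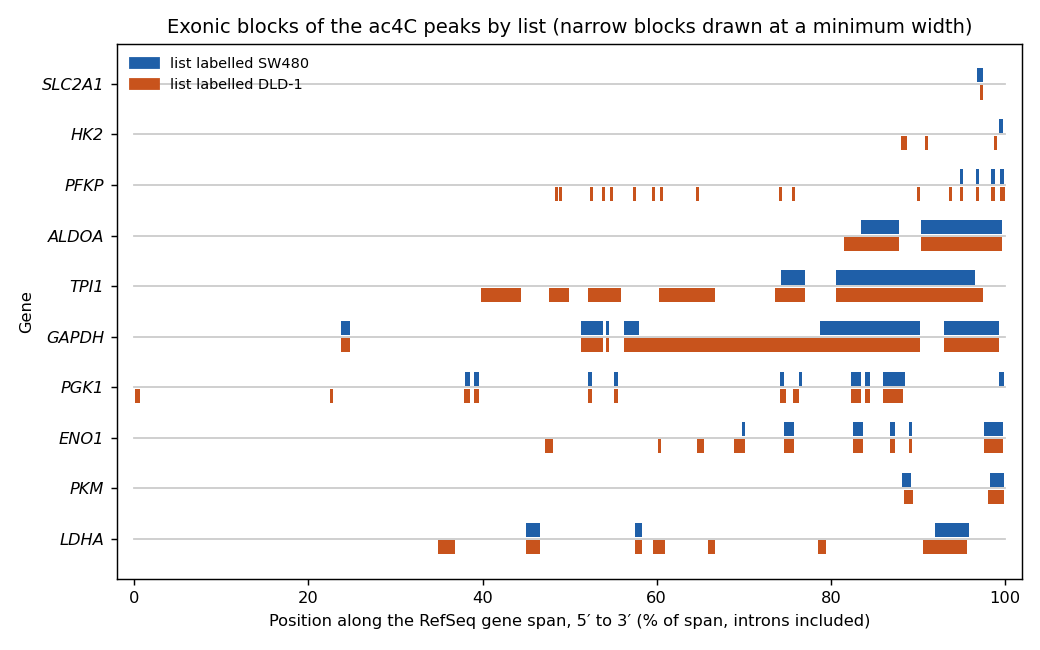
Exonic blocks of the ac4C peaks of each gene along its RefSeq span (x axis, percent of the span from 5′ to 3′, introns included), for the list labelled SW480 (blue) and that labelled DLD-1 (orange). Blocks crowd towards the 3′ end, and HK2 shares none. In HK2, PFKP, TPI1, PGK1, ENO1, LDHA and, slightly, ALDOA the DLD-1 blocks begin farther 5′.

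Peaks of several members reached the annotated 3' end closely, a feature looked at after the data were seen. A peak ended within 100 bases of the RefSeq 3' end in 5 members in SW480 (ALDOA, GAPDH, PGK1, ENO1 and PKM), where 30.6% of the protein-coding genes with a peak did, and in 6 in DLD-1 (PFKP, ALDOA, TPI1, GAPDH, ENO1 and PKM), where 22.6% did. Among genes with at least 100 FPKM in both Inputs, the counts were 4 of 6 members against 63.1% in SW480 and 5 of 6 against 56.1% in DLD-1. At least 1 motif site was listed for 13 of 16 member peaks in SW480 (81.2%, against 56.2% of all peaks) and 16 of 18 in DLD-1 (88.9%, against 55.1%). Per kilobase of peak the members had 4.64 and 5.45 sites, beside 5.13 and 4.64 for all peaks.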

How the data were processed

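The authors deposited, for RIP-seq, FPKM values of 58302 genes in 4 columns (RIP and Input, 2 lines), and a table with 2 Input columns deposited with the acRIP-seq data, read as FPKM. The ratio columns of the RIP table, the authors' own RIP over Input and their mean, were not used. The 3 deposited peak lists (1 per line, 1 pooled) give the authors' fold (ratio) of acRIP over Input, a p-value, and the base-10 logarithm of the FDR, handled as a score. The peak caller, counting tool and use of strand are not given in the sources used here. The submitters' processing notes name cutadapt 2.5, HISAT2 2.1.0 and the builds GRCh38, hg38 and GRCm38 without roles. Coordinates lie on GRCh38, and starts were moved by 1 base to count from 1.

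Groups came from the sample titles. Whole reads were solved from the FPKM steps (23511 of 23515 genes above 0 in at least 2 of 4 columns), as were gene lengths and totals. These are the smallest numbers that give the values, so counting errors are upper limits. Ratios used a pseudocount of 1 FPKM and genes with at least 1 FPKM in both Inputs. limma 3.58.1 (R 4.3.3, trended variance, no block) was tested on simulated data. p-values there measure the spread between these libraries only. Other pseudocounts, filters, scalings, Inputs and fits were tried. Members, lists, thresholds and tests were chosen with earlier results of these data known. Named genes are the 10 members, at most 4 per list (the 2 highest and 2 lowest by mean ratio) and the 5 nearest profiles. Beyond this rule, HKDC1, SLC2A3, PDHB, SLC16A3, KRT18, EPCAM and the genes named as listed at 0 were chosen after their values were seen. So were KRT20, CDX1, VIL1 and LGALS4. A peak counted as shared when its blocks had 1 or more bases in common with a same-strand peak of the other line. Promoter windows of all 10 members were matched by symbol in RefSeq (GRCh38.p14), and 1 member peak held a listed site there. A listed position lies 1 base before the first C on the plus strand, which held at 38 of 38 testable sites in SW480 and 81 of 81 in DLD-1.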

Additional observations from a re-analysis of the deposited data

Results flagged for a closer look

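The RIP-to-Input log2 ratio of 3 members had opposite signs in the labels, each beyond its 95% counting interval. SLC2A1 was at 1.68 in SW480 and -0.51 in DLD-1, ALDOA at 0.58 and -0.42, and PKM at -0.27 and 0.72. With 1 library per group the difference between the labels was not tested. The share of all genes with such opposite signs was not computed. Between Input and RIP, the order of the labels was opposite for 74.0% of all genes tested. Over the Input of the other label, all 6 values were positive, at 0.46 and 0.71 for SLC2A1, 0.005 and 0.16 for ALDOA, and 0.19 and 0.26 for PKM. The same 3 genes differed between the Inputs by -1.22, -0.58 and 0.46 (SW480 minus DLD-1, log2) and between the RIP libraries by 0.97, 0.43 and -0.53.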

How the results depend on the processing

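The counts of members at least 2-fold above or below Input were unchanged with another pseudocount, no filter, at least 10 FPKM in Input, centring, rescaling to protein-coding FPKM or pseudogenes added, and with the other label's Input that of the label SW480 was 2 instead of 3 (without SLC2A1). With the Inputs of the acRIP-seq table the count above Input was 5 instead of 3 (label SW480) and 5 instead of 2 (mean). With that table's Input of the other label, added after the data were seen, it was 5 instead of 2 (label DLD-1 and mean). For the label SW480 it was then 4 instead of 3 (ALDOA, GAPDH, PKM and LDHA), without SLC2A1 (0.66) and PGK1 (0.97). In the label DLD-1 it was 3 (GAPDH, PKM and LDHA) with that table's own Input, without PGK1. Gene lengths were longer there for the 7 members solved, and their part in these counts was not tested. The share of all genes above Input was not computed with that table's Inputs, so these counts have no background. Over 10 or 11 alternatives the mean log2 ratio of GAPDH ranged from 1.33 to 2.0, of PGK1 from 1.18 to 1.77, of LDHA from 0.31 to 1.75, of SLC2A1 from 0.35 to 0.92 and of TPI1 from -0.52 to -0.16. Those of HK2, PFKP, ALDOA, ENO1 and PKM changed sign under at least 1 of them. In limma 0 members passed; 2 did with a pseudocount of 0.1 FPKM and 4 (SLC2A1, GAPDH, PGK1 and LDHA) with the cell line as a block after exchange of the Input labels, where genes higher and lower in RIP rose to 2886 and 2678. With the block as labelled these were 0 and 11, with 0 members, without the trend 33 and 160, and with a pseudocount of 0.1 FPKM 157 and 608. Leaving out each library kept 0 members, with 1 to 3 genes higher and 25 to 576 lower, the lone library being assumed to vary like the pair. The cause was not tested. Requiring 50% of each peak left 9 of the 14 shared member peaks in SW480 and 9 of the 12 in DLD-1, with no share over all peaks computed. Depth of the acRIP libraries is unknown, and replicates would be needed for any error of a single ratio.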
